A study of Mus musculus with 15 samples.

Results

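The cells described here were 164 single cells from hearts of mouse embryos at E7.75 (embryonic days after conception), taken from 2 libraries of Nkx2-5Cre::Rosa26tdTomato embryos. In this genotype Cre is made where the cardiac transcription factor gene Nkx2-5 is active, and Cre switches on the red reporter tdTomato permanently in those cells and their descendants. Cells were kept when they had at least 1000 detected genes, less than 50 CPM (the count of a gene scaled to a common total in each cell) of the epithelial gene Epcam, and fewer than 4 of 8 endothelial genes (Cdh5, Pecam1, Esam, Egfl7, Icam2, Emcn, Ramp2 and Kdr) at 20 CPM or more. The rule kept 80 cells of replicate 1 and 84 cells of replicate 2, that is 164 of the 192 cells deposited for these libraries and of 1400 cells in the 15 libraries of the series. The same rule was applied to the comparison groups, which were Isl1Cre::Rosa26tdTomato hearts at E7.75 (69 and 71 cells) and Nkx2-5Cre::Rosa26tdTomato hearts at E8.25 (87 and 82 cells). All of these cells carried the Rosa26tdTomato reporter, and Isl1Cre marks cells in which the progenitor gene Isl1 has been active. Strain and sex were not given in the sources used here. Cells were sorted by fluorescence or only dissociated with trypsin, then picked by mouth pipette, and which of these applied to which library was not given.

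Both libraries of a group carried 1 embryo number in their titles and so may stem from 1 embryo. The p-values below then describe variation between such libraries, possibly of technical origin. Its size was not taken from the 2 libraries of a group alone. It was pooled over all 15 libraries (7 residual degrees of freedom) or over 3 groups of cells in each of the 4 E7.75 libraries (4 residual degrees of freedom). It was also drawn towards the spread of other genes. Lineage or stage cannot be told apart from the embryo that stood for it.

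At this stage the mesoderm of the cardiac crescent begins to build the contractile apparatus. Cardiac troponin T, encoded by Tnnt2, is part of the thin filament switch that couples calcium to contraction and is one of the earliest muscle proteins of the heart. Heart progenitors are commonly divided into a first heart field, which differentiates early and forms much of the left ventricle, and a second heart field, which expresses Isl1, proliferates for longer and adds cells to both poles of the tube. Nodal and its feedback inhibitor Lefty2 act in the lateral mesoderm of the left side, where Lefty2 limits the spread of the Nodal signal.

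Values at the edges of the rule were well separated. The highest Epcam level among the kept cells was 42.1 CPM in replicate 1 and 45.2 CPM in replicate 2, and the lowest among cells left out for Epcam was 93.4 and 152 CPM. In replicate 1, 3 kept cells had 3 of the endothelial genes, and no left-out cell had exactly 4. The kept cell with the fewest genes had 1149 in replicate 1 and 1007 in replicate 2, and the cells left out for few genes had at most 550 and 173. The kept cells summed to 32327466 and 18908522 counts, with a median of 357397 and 200553 counts per cell, and 5 and 10 cells had fewer than 20000 counts. No cell name occurred in more than 1 library.

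The label of heart mesoderm was checked against marker lists. Of the 36 contractile genes, 32 averaged at least 20 CPM in replicate 1. The median share of all counts in this list was 2.55% in replicate 1 (range 0.591% to 8.44%) and 2.34% in replicate 2 (0.519% to 7.32%). Of the 19 nascent mesoderm genes, 10 were at 0 in replicate 1 and 8 in replicate 2, T, Mesp1, Tbx6 and Msgn1 in both. Pdgfra, which later mesoderm also expresses, averaged at least 20 CPM in both libraries, Lhx1 did in replicate 2, and the list had a median sum of 98.4 and 102 CPM per cell. At 0 as well were 7 and 8 of the 8 primitive blood genes. Endoderm genes were present. The secreted protein genes Rbp4, at 23.4 to 927 CPM, and Spink1, at 73.1 to 1701 CPM, were seen in every replicate 1 cell, while Rbp4 was at 0 in every replicate 2 cell and Spink1 had a median of 83.9 CPM there. The summed endoderm list was 1843, 2121 and 1774 CPM in the bottom, middle and top tertiles of replicate 1 by Tnnt2 (cells cut into 3 groups by their Tnnt2 level) and 1338, 1488 and 1341 CPM in replicate 2. The part of these RNAs in the results below was not tested.

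All 164 cells had Tnnt2 counts, over a wide range. Replicate 1 ran from 318 to 5375 CPM with a median of 1880 CPM, and replicate 2 from 161 to 6858 CPM with a median of 1876 CPM. The medians of the 2 libraries nearly coincided, and neither library showed a gap that would split the cells into classes. The ratio of the 90th to the 10th percentile was 5.80 in replicate 1 and 7.67 in replicate 2. In the Isl1Cre libraries this ratio was 38.4 and 70.3, and in the Nkx2-5Cre libraries at E8.25 it was 1.73 and 2.75. Only 0 and 1 of the Nkx2-5Cre cells lay under 200 CPM at E7.75, against 21 and 18 of the Isl1Cre cells.

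The left-out cells gave a measure of Tnnt2 RNA outside this cell group. The 11 left-out cells of replicate 1 with enough genes had 202 to 628 CPM (median 390 CPM) and the 11 of replicate 2 had 294 to 980 CPM (median 439 CPM). Of the kept cells, 73 of 80 and 55 of 84 lay above the highest of these. The left-out cells of the Isl1Cre libraries had medians of 122 and 76.3 CPM.

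**Figure D1:**
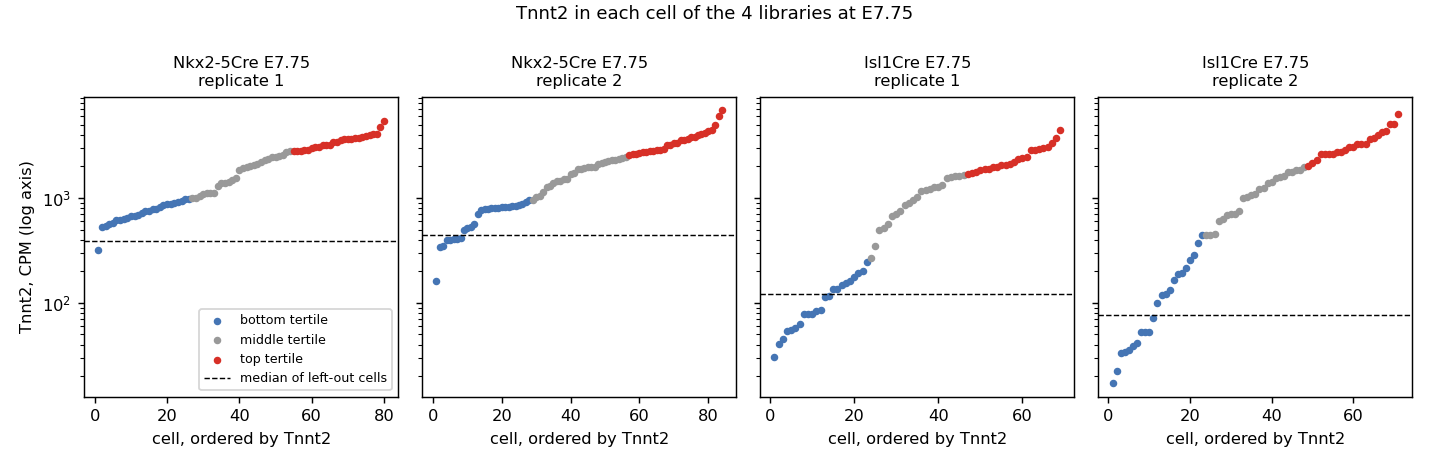
Tnnt2 level (CPM, log axis) of each cell of the rule, ordered from lowest to highest within each E7.75 library, with the tertiles coloured and the median of the left-out cells dashed. The Nkx2-5Cre cells run without a break from 318 and 161 CPM upwards, while 21 and 18 Isl1Cre cells lie under 200 CPM.

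Each library was cut by Tnnt2 into tertiles (bottom, middle and top, of 26 to 28 cells), a ranking that the cell group was chosen to be described by, so the values within Nkx2-5Cre cells are descriptions without a test. The bottom tertile reached up to 987 CPM in replicate 1 and 956 CPM in replicate 2, and the top tertile began at 2806 and 2553 CPM. The next cells outside these limits had 990 and 2802 CPM in replicate 1 and 958 and 2467 CPM in replicate 2, so the tertiles are ranges of a continuum. The mean Tnnt2 level was 731, 1796 and 3530 CPM in the bottom, middle and top tertiles of replicate 1 and 648, 1774 and 3587 CPM in replicate 2, a 4.83-fold and 5.54-fold difference between top and bottom. The median cell of the bottom, middle and top tertiles held 273860, 393692 and 358858 counts in replicate 1 and 296780, 197959 and 166145 counts in replicate 2. Depth was therefore lower towards the top of the ranking in replicate 2 (Spearman rho of Tnnt2 with counts -0.278) but hardly moved with it in replicate 1 (rho 0.009).

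Among 5022 genes that averaged at least 20 CPM and were seen in at least 25% of cells in both libraries, 141 genes (2.81%) had a rank correlation with Tnnt2 above 0.3 in both libraries and 184 genes (3.66%) had one below -0.3 in both. No gene passed 0.3 in opposite directions. Given the counts of the cell, as a partial rank correlation, 166 genes passed 0.3 and 144 passed -0.3, and among the 70 and 71 cells with at least 50000 counts 183 and 269 did. The median correlation of all 5022 genes was -0.031 in replicate 1 and -0.072 in replicate 2. In fold terms, 175 genes (3.48%) averaged at least 2-fold more in the top than in the bottom tertile of both libraries and 94 genes (1.87%) at least 2-fold less. The correlations of the 2 libraries agreed across genes with r = 0.726, which is a description, since genes are not independent and all values share CPM scaling within a cell.

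**Figure D2:**
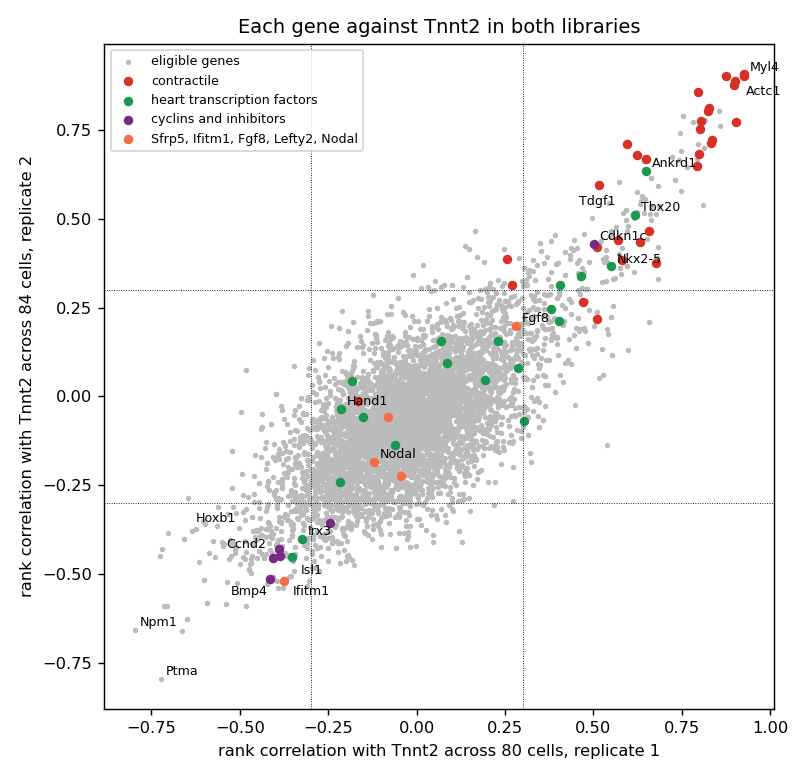
Spearman correlation of each of 5022 genes with Tnnt2 across the Nkx2-5Cre E7.75 cells of replicate 1 (x axis) and replicate 2 (y axis), with gene lists coloured and dotted lines at 0.3 and -0.3. Contractile genes sit at the upper right, with medians of 0.735 and 0.682. The other coloured lists are heart transcription factors, cyclins and inhibitors, and the genes Sfrp5, Ifitm1, Fgf8, Lefty2 and Nodal. Ribosomal and S phase genes, most of them below 0 in both libraries, are not coloured as lists.

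Contractile genes followed Tnnt2 most closely. Of 30 eligible members of the contractile list, 25 passed 0.3 in both libraries and 0 passed -0.3, with a median correlation of 0.735 in replicate 1 and 0.682 in replicate 2. Myl4 and Myl7, which encode the atrial essential and regulatory myosin light chains, had correlations of 0.93 in replicate 1 and of 0.91 and 0.90 in replicate 2. The Myl7 level of single cells ran from 1132 to 18872 CPM (median 4740 CPM) in replicate 1 and from 599 to 13716 CPM (median 4576 CPM) in replicate 2. Its mean was 2172, 4432 and 8455 CPM in the bottom, middle and top tertiles of replicate 1 and 1602, 4653 and 8036 CPM in replicate 2, so it was higher at each step in both libraries.

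Actin and tropomyosin genes of the thin filament behaved likewise. Actc1, the cardiac alpha actin, ran from 357 to 10583 CPM in replicate 1 and from 204 to 8853 CPM in replicate 2. Its tertiles averaged 1133, 2556 and 6477 CPM in replicate 1 and 512, 1899 and 4553 CPM in replicate 2, a wider span than that of Tnnt2 itself. Acta2, smooth muscle alpha actin, which the early heart also makes, averaged 424, 1188 and 2807 CPM in replicate 1 and 377, 1274 and 2621 CPM in replicate 2. Tpm1, which encodes the tropomyosin that troponin moves, averaged 1987, 3561 and 7177 CPM and 1820, 3729 and 6825 CPM. Tnni1, the slow skeletal troponin I that the embryonic heart uses, had correlations of 0.90 and 0.77. The 15 strongest positive correlations also held the myosin light chain genes Myl3, Myl6 and Myl9, the troponin C gene Tnnc1, Dstn, which encodes the actin-severing protein destrin, and Fkbp1a, whose product binds the ryanodine receptor.

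Other sarcomere genes of lower level followed Tnnt2 to differing degrees. Ttn, the giant spring protein titin, had correlations of 0.83 and 0.81 and averaged 221, 580 and 1664 CPM in the tertiles of replicate 1 and 128, 601 and 1456 CPM in replicate 2. The myosin heavy chain gene Myh6 averaged 147, 398 and 973 CPM and 76.6, 260 and 672 CPM. The other cardiac heavy chain gene, Myh7, averaged 53.8, 111 and 311 CPM and 25.5, 81.7 and 258 CPM. Actn2, the alpha actinin of the Z disc, had correlations of 0.51 and 0.42, and Tnni3, the adult cardiac troponin I, of 0.51 and 0.22. The nonmuscle myosin gene Myh10 did not follow, with correlations of -0.17 and -0.01. Ckb, the brain-type creatine kinase that buffers ATP, averaged 116, 343 and 559 CPM and 120, 410 and 677 CPM, and 4 of 7 eligible calcium handling genes passed 0.3.

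**Figure D3:**
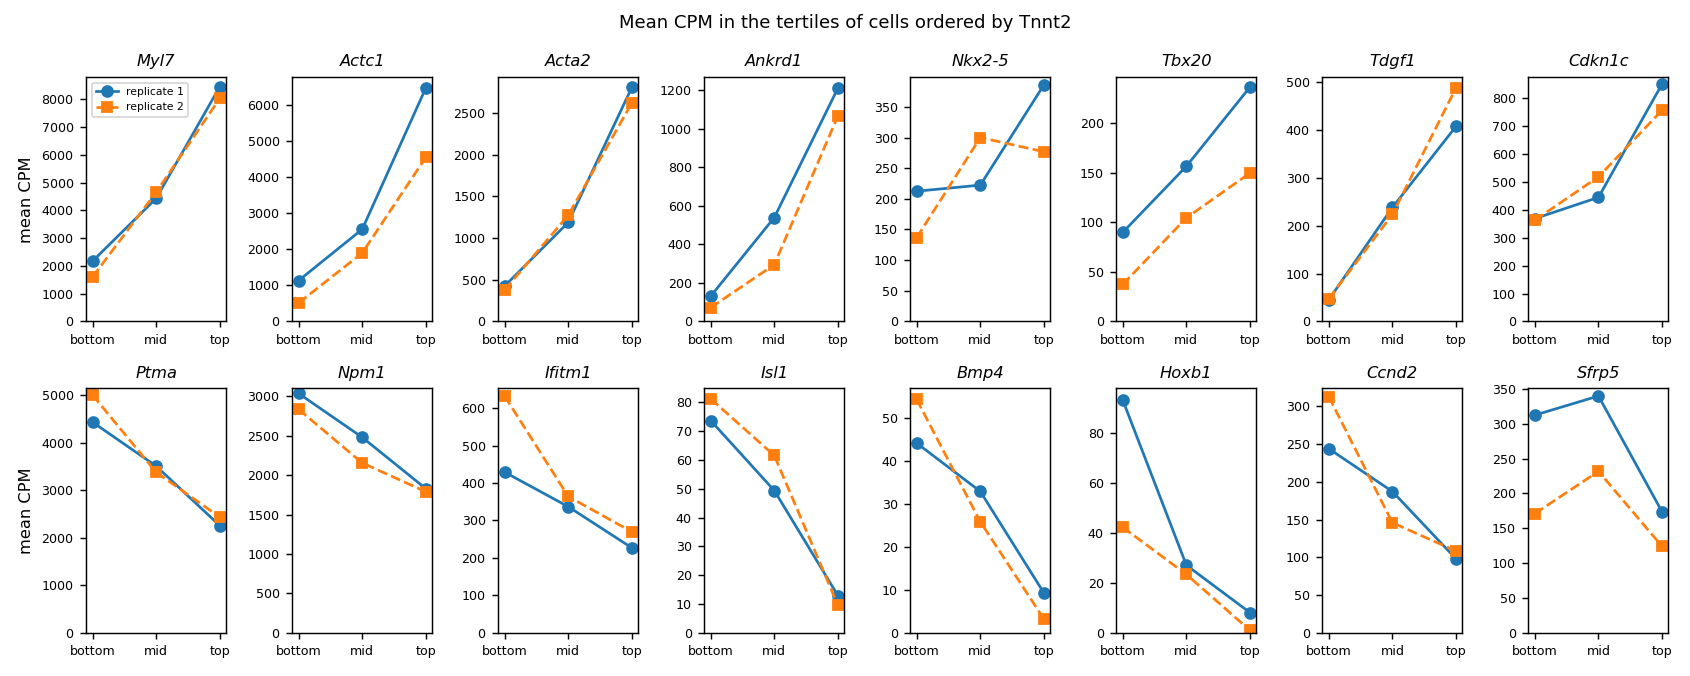
Mean CPM in the bottom, middle and top tertile of Nkx2-5Cre E7.75 cells by Tnnt2 for 16 genes, 1 line per replicate, each panel starting at 0. Muscle genes such as Actc1 are higher at each step (1133 to 6477 CPM in replicate 1), and Ptma, Npm1, Isl1, Bmp4 and Hoxb1 are lower at each step in both replicates.

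The stretches before the start sites of 5 genes of the ranking are printed as examples. They show the letters before muscle genes that were high together and before a gene, Ptma, that was high where they were low. The sequences are from RefSeq (GRCm38.p6, which is the mm10 build), read 5′ to 3′ on the gene's strand and ending at the base before the gene. For Tnnt2 the start site of the promoter table lies 19 bases past the gene's 5′ end, so those bases are not printed and its positions below count from the table's start site. Capitals mark matches, on either strand, to the CArG box that serum response factor binds, to GATAA (the core that GATA factors bind) and to CATTCC (the core that TEAD factors bind). The windows lie at chr1:135836084-135836314 on the plus strand for Tnnt2, chr2:114052876-114053125 on the minus strand for Actc1, chr11:5898783-5899032 on the minus strand for Myl7, chr19:36119845-36120094 on the minus strand for Ankrd1, and chr1:86526307-86526556 on the plus strand for Ptma.
Tnnt2: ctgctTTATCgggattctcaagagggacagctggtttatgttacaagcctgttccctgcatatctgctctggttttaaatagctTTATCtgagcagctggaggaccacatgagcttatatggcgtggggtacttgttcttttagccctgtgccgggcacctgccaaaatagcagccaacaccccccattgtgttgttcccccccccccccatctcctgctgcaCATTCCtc
Actc1: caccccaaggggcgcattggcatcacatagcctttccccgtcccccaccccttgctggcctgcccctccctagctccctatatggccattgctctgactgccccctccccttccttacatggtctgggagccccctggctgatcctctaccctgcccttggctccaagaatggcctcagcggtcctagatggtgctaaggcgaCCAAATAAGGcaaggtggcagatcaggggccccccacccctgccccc
Myl7: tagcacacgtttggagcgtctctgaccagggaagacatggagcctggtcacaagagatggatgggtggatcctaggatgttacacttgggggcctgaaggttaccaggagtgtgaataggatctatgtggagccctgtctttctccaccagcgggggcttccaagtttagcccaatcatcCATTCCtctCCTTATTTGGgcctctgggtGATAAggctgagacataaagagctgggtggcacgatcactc
Ankrd1: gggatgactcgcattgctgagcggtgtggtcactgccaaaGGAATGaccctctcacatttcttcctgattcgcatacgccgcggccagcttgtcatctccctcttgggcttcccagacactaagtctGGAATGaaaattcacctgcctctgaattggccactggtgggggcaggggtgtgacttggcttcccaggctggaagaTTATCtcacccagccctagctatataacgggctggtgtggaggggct
Ptma: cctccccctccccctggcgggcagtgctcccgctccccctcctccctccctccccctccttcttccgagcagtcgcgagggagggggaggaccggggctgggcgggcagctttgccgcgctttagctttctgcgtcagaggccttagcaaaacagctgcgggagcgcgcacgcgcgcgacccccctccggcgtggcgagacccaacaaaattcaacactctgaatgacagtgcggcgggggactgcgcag

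Actc1 held a CArG box 47 to 38 bases before its start site. Myl7 held a CArG box 61 to 52 bases before the start, with a CATTCC match just upstream of it at 70 to 65 and a GATAA match downstream at 41 to 37. Tnnt2 had no CArG box in its 231 bases, but CATTCC lay 27 to 22 bases before the start and GATAA matches at 245 to 241 and 166 to 162. Ankrd1 had a GATAA match at 47 to 43 and CATTCC matches at 210 to 205 and 123 to 118. Ptma, which encodes the nuclear protein prothymosin alpha, held none of these motifs. Genes not printed did not all divide in this way. Tbx20, which followed Tnnt2, held none of them either, and Isl1, which ran against it, held a GATAA match at 114 to 110. A CArG box was found in 7 of 29 contractile promoters (24.1%), in 11 of 108 promoters of the 141 positively correlated genes (10.2%), in 5 of 137 of the negatively correlated genes (3.65%) in 64 of 3914 of all genes eligible for the ranking (1.64%) and in 380 of 27025 promoters, 1 for each gene with an entry (1.41%). CATTCC was found in 34.5% of contractile promoters, 26.9% of positive, 9.49% of negative, 9.99% of eligible and 12.6% of all promoters. GATAA was found in 27.6%, 22.2%, 10.9%, 14.5% and 23.0% of the same sets, and TATAAA, read on the gene's strand only, in 6.90%, 5.56%, 5.11%, 3.65% and 8.13%. These shares cover the 250 bases before each start site of the table, each promoter counted once however many matches it held, and a match is a description of letters, not a binding site.

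A smaller share of the heart's transcription factor genes followed Tnnt2. Of 20 eligible members of the list, 5 passed 0.3 in both libraries and 2 passed -0.3. Ankrd1, which encodes a muscle ankyrin repeat protein that acts in the nucleus and at the sarcomere, averaged 131, 540 and 1212 CPM in the tertiles of replicate 1 and 71.9, 295 and 1068 CPM in replicate 2. Tbx20, a T-box factor needed for the growth of the heart tube, averaged 89.9, 157 and 237 CPM and 37.3, 105 and 150 CPM. Nkx2-5 itself averaged 212, 222 and 386 CPM in replicate 1 and 137, 300 and 277 CPM in replicate 2. It was seen in 79 of 80 and 80 of 84 cells, so nearly every cell had counts of it. Left-out cells also had Nkx2-5, with medians of 130 and 56.6 CPM. Mef2c, a partner of GATA factors at muscle genes, and Smarcd3, the heart-enriched subunit of the BAF chromatin remodeller, also passed 0.3 in both libraries.

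Gata4 had correlations of 0.40 and 0.21, and of 0.40 and 0.31 among the cells with at least 50000 counts. Gata6 had correlations of 0.09 and 0.09, Tbx5 of 0.19 and 0.05, Hand1 of -0.21 and -0.03, and Hand2 of -0.15 and -0.06. Isl1 and Irx3 were the factors that passed -0.3. Isl1 was seen in 67 and 64 cells, with medians of 12.7 and 12.8 CPM and highest values of 420 and 299 CPM. Its tertiles averaged 73.7, 49.4 and 12.9 CPM in replicate 1 and 81.3, 61.6 and 9.57 CPM in replicate 2. Among the kept cells, those with high Isl1 were thus mostly found in the lower tertiles of both libraries. Cells left out by the rule had medians of 70.0 and 8.92 CPM of Isl1, so its RNA was also found outside the cell group.

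Some posterior second heart field genes were likewise higher in the lower tertiles. Of 8 eligible posterior second heart field genes, 0 passed 0.3 and 3 passed -0.3. Hoxb1, a homeobox gene of posterior heart progenitors, averaged 93.4, 27.1 and 8.09 CPM in the tertiles of replicate 1 and 42.4, 23.4 and 0.968 CPM in replicate 2. It was seen in 68 of 80 and 36 of 84 cells. The ligand gene Bmp4 averaged 44.1, 32.8 and 9.23 CPM and 54.2, 25.8 and 3.18 CPM, and its correlation with Hoxb1 across cells was 0.51 and 0.46 (0.40 and 0.23 after thinning to 20000 counts). Isl1 and Bmp4 were both concentrated in the lower tertiles but had correlations with each other of 0.12 and 0.16. Across the first heart field list, 2 of 10 eligible genes passed 0.3 and 1 passed -0.3, and in the anterior second heart field list 2 of 5 passed 0.3 and 1 passed -0.3.

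Of the 5 genes that mark this cell group, Ifitm1 alone passed the limit. Ifitm1, an interferon-induced membrane protein gene expressed in early mesoderm, averaged 429, 337 and 227 CPM in the tertiles of replicate 1 and 632, 364 and 270 CPM in replicate 2, with correlations of -0.38 and -0.52. Left-out cells had medians of 207 and 187 CPM of Ifitm1. The neighbours of Ifitm1 in the ranking of correlations included Ptma (0.47 and 0.58, or 0.36 and 0.56 thinned to 20000 counts) and the homeobox gene Meis1 (0.52 and 0.47, or 0.28 and 0.31 thinned), and the most negative was Tnnc1, cardiac troponin C (-0.53 and -0.58). Sfrp5, a secreted Wnt antagonist of the cardiac crescent, averaged 312, 340 and 174 CPM and 171, 232 and 124 CPM, highest in the middle tertile of both libraries. Its correlations with Tnnt2 were -0.08 and -0.06. Fgf8, a growth factor gene of the heart fields, averaged 92.5, 129 and 160 CPM and 154, 150 and 177 CPM, with correlations of 0.28 and 0.20.

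Nodal and Lefty2 were high together in cells from every part of the Tnnt2 ranking. Nodal was seen in 72 of 80 and 72 of 84 cells, with medians of 14.4 and 19.4 CPM and highest values of 285 and 508 CPM. Lefty2 was seen in 74 and 67 cells, with medians of 20.5 and 13.9 CPM and highest values of 1210 and 729 CPM. A few cells were thus far above the rest in both libraries. Left-out cells of the same libraries reached 23.3 and 24.2 CPM of Nodal, and 26 and 35 kept cells lay above that. For Lefty2 the left-out cells reached 38.9 and 38.8 CPM, and 19 and 18 kept cells lay above. Low levels of either gene were therefore also found outside the cell group.

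Across cells, Nodal correlated with Lefty2 at 0.47 in replicate 1 and 0.54 in replicate 2. Thinned to 20000 counts per cell, the Nodal and Lefty2 correlation was 0.33 and 0.44. Cells without Nodal were mostly shallow, with a median of 14378 and 13091 counts against 375102 and 227132 counts in cells with it. In shallow cells 0 counts does not show absence. The exception was the top tertile of replicate 1, where cells without Nodal had a median of 235347 counts. At 20 CPM or more of both genes there were 19 cells in replicate 1, of which 8, 5 and 6 lay in the bottom, middle and top tertiles, and 24 cells in replicate 2, of which 11, 9 and 4 did. The correlation of Tnnt2 with Nodal was -0.12 and -0.18 and with Lefty2 -0.04 and -0.22. The mean Lefty2 level was 148, 51.6 and 30.1 CPM in the bottom, middle and top tertiles of replicate 1. In replicate 2 it was 66.6, 82.5 and 25 CPM, highest in the middle tertile. The EGF-CFC co-receptor gene Tdgf1 did follow Tnnt2, at 45.4, 238 and 408 CPM in the tertiles of replicate 1 and 47.3, 224 and 489 CPM in replicate 2. It was 1 of 2 among 8 eligible Nodal and left-right genes to pass 0.3, together with Cited2, a transcriptional coregulator.

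Fgf8 and Wnt2 ran against each other across cells. Wnt2, a ligand gene of the inflow region, had medians of 178 and 74.0 CPM and highest values of 695 and 1015 CPM. Its correlation with Fgf8 was -0.48 in replicate 1 and -0.55 in replicate 2, and -0.52 and -0.48 after thinning to 20000 counts. With Tnnt2 its correlations were -0.03 and 0.15. In tertiles of cells by Fgf8, the mean of Fgf8 was 17.6 CPM at the bottom and 300 CPM at the top in replicate 1, and 22.0 and 328 CPM in replicate 2. Wnt2 averaged 297 and 142 CPM in those tertiles of replicate 1 and 274 and 46.3 CPM in replicate 2. The factor gene Hand1 averaged 99.9 and 25.4 CPM and 148 and 20.5 CPM, and Sfrp5 409 and 196 CPM and 270 and 116 CPM, all lower where Fgf8 was high. Vcan, which encodes the matrix proteoglycan versican, went the other way, at 144 and 272 CPM and 155 and 393 CPM. The median depth of the bottom and top Fgf8 tertiles was 415725 and 322395 counts in replicate 1 and 227132 and 138774 counts in replicate 2.

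The Fgf8 and Wnt2 relation was not seen in the other groups. Their correlation was 0.11 and -0.10 in the 2 Isl1Cre E7.75 libraries and 0.04 and 0.08 in the 2 Nkx2-5Cre E8.25 libraries. These are descriptions, and the difference between groups was not tested. Both genes were lower in the Isl1Cre cells, with medians of 9.51 and 30.3 CPM for Fgf8 and 47.4 and 20.2 CPM for Wnt2. In the Nkx2-5Cre cells at E7.75 the medians of Fgf8 were 59.4 and 122 CPM. Median depth of the Isl1Cre cells was 105119 and 127704 counts. The part of level and depth in the unlike correlations was not tested. Sfrp5 correlated with Wnt2 at 0.52 and 0.37 (0.42 and 0.36 thinned to 20000 counts). Its correlations with Tbx5, 0.43 and 0.44, became 0.43 and 0.12 after thinning, and those with Gata4, 0.42 and 0.34, became 0.15 and 0.25. Fgf8 correlated with Vcan at 0.44 and 0.52, with Tdgf1 at 0.53 and 0.36 and with Myh7 at 0.44 and 0.46. Tnnt2, which these 3 genes also followed, averaged 1514 and 2247 CPM in the bottom and top Fgf8 tertiles of replicate 1 and 1467 and 2224 CPM in those of replicate 2. Each of these relations had the same sign in both libraries. Unlike that of Fgf8 and Wnt2, several were also seen elsewhere. In the Isl1Cre E7.75 libraries Sfrp5 correlated with Wnt2 at 0.39 and 0.52, with Tbx5 at 0.34 and 0.51 and with Gata4 at 0.38 and 0.37. Fgf8 correlated there with Tdgf1 at 0.24 and 0.55 and with Vcan at only 0.05 and 0.24.

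**Figure D4:**
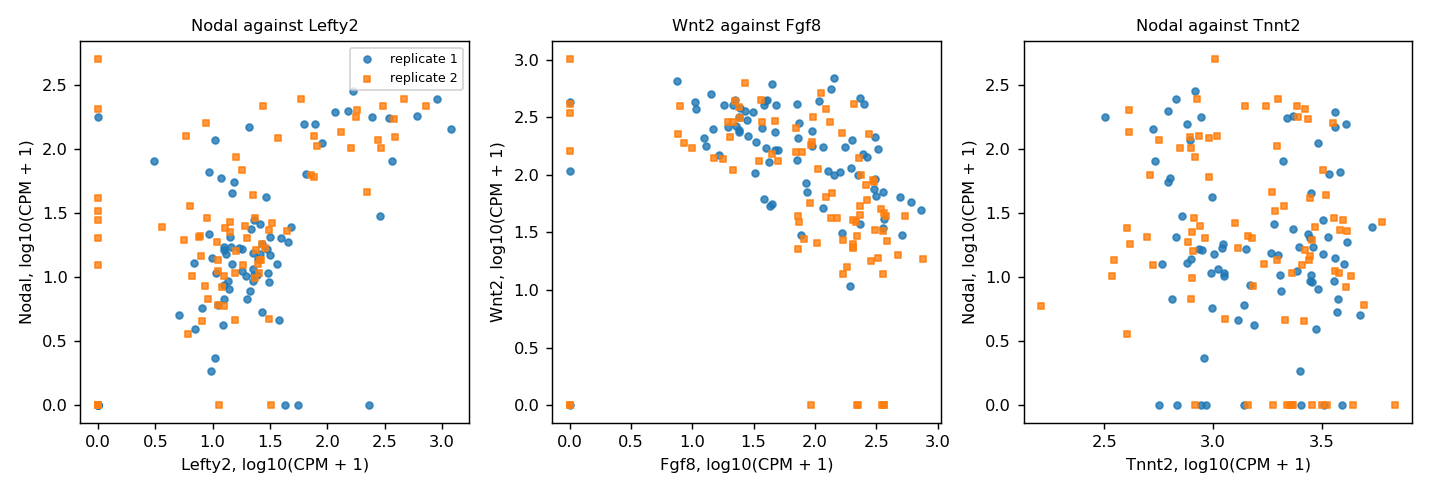
Each point is 1 Nkx2-5Cre E7.75 cell, coloured by replicate, with log10(CPM + 1) of Nodal against Lefty2 (left), Wnt2 against Fgf8 (middle) and Nodal against Tnnt2 (right). Nodal and Lefty2 are high in the same cells (rho 0.47 and 0.54), Wnt2 and Fgf8 run against each other (rho -0.48 and -0.55), and Nodal shows little relation with Tnnt2 (rho -0.12 and -0.18).

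Ptma was at the opposite end of the ranking. It had correlations of -0.72 and -0.80 and averaged 4429, 3504 and 2252 CPM in the tertiles of replicate 1 and 4998, 3375 and 2432 CPM in replicate 2. Npm1, nucleophosmin, a nucleolar protein of ribosome assembly, averaged 3038, 2481 and 1829 CPM and 2837, 2156 and 1790 CPM. The mitochondrial chaperonin genes Hspe1 and Hspd1 and the Ran binding protein gene Ranbp1 were also among the 15 most negative, as were Stmn1, which encodes the microtubule-destabilising protein stathmin, Fabp5, a fatty acid binding protein gene, and the cell surface gene Cd24a. The transcription factor gene Sox11 averaged 230, 200 and 84.6 CPM and 367, 231 and 112 CPM. Because CPM values compete within a cell, the correlations were recomputed with the contractile list and the 50 most abundant genes taken out of each cell's total. Ptma then had -0.69 and -0.77, with 155 genes past 0.3 and 151 past -0.3 in both libraries. Thinning to 20000 counts left 117 genes past 0.3 and 83 past -0.3, and Ptma at -0.68 and -0.77.

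Cell cycle genes leaned the same way without most of them passing the limit. Of 28 eligible S phase genes, 0 passed 0.3, 5 passed -0.3 and 26 were negative in both libraries, as were 2429 of all 5022 genes. Rrm2, the ribonucleotide reductase subunit that supplies deoxynucleotides, averaged 486, 485 and 209 CPM in the tertiles of replicate 1 and 461, 391 and 230 CPM in replicate 2. The median of the summed S phase list was 4068 CPM in the bottom and 2653 CPM in the top tertile of replicate 1 and 4502 and 2439 CPM in replicate 2. Of 39 eligible G2/M genes, 0 passed 0.3 and 1 passed -0.3, while 28 were negative and 0 positive in both libraries. The median of the summed G2/M list was 6872, 7876 and 4381 CPM in replicate 1 and 5857, 6221 and 6218 CPM in replicate 2, so the libraries differed there. Ccnd2, cyclin D2, averaged 244, 187 and 97.9 CPM and 313, 146 and 108 CPM. The cyclin-dependent kinase inhibitor gene Cdkn1c lay at the other end, at 369, 445 and 851 CPM and 363, 518 and 757 CPM.

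Of 40 eligible ribosomal protein genes, 35 were negative in both libraries but only 4 passed -0.3, with median correlations of -0.19 and -0.24 against -0.031 and -0.072 over all 5022 genes, of which 2429 were negative in both. Of 44 eligible oxidative phosphorylation genes, 2 passed 0.3 and 0 passed -0.3, and 29 were positive in both libraries (1168 of all 5022 genes were), with median correlations of 0.18 and 0.09. Of 17 eligible glycolysis genes, 0 passed in either direction, but 13 were positive and 1 negative in both libraries, with median correlations of 0.206 and 0.145. Dnmt3b, the de novo DNA methyltransferase of the epiblast, and Lin28b, an RNA-binding protein of early development, had correlations of -0.47 and -0.42, and of -0.41 and -0.39. The paraxial mesoderm list, of 10 genes, summed to 73.2 CPM in the bottom and 18 CPM in the top tertile of replicate 1 and to 64.1 and 18 CPM in replicate 2, with 4 and 5 of its genes at 0. The part of such cells in the bottom tertile was not tested.

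The same ranking was applied to the Isl1Cre E7.75 cells, whose libraries were not used to pick the 141 and 184 genes. The ranking gene, the marker genes and all gene lists were chosen with earlier results of these data known. The p-values here and in the next paragraph are therefore not independent support. Tnnt2 is itself a contractile gene, so a rise of contractile genes between its tertiles could be foreseen. Contractile genes rose with Tnnt2 there too: 28 of 34 tested members were higher in the top tertile and 0 lower by limma at an adjusted p of 0.05, with a median difference of 3.75 on the log2(mean CPM + 1) scale. Over all 10252 genes tested, 373 (3.64%) were higher, 246 (2.40%) lower, and the median difference was -0.03. Of the 141 genes positive in the Nkx2-5Cre cells, 122 were higher and 0 lower in the Isl1Cre top tertile. Of the 184 negative genes, 69 were lower and 1 higher. The 2 cell cycle lists parted in the Isl1Cre cells. Of 30 S phase genes, 0 were higher and 8 lower (median -0.49). Of 40 G2/M genes, 5 were higher and 0 lower (median 0.29), the opposite of their lean in the Nkx2-5Cre cells. The count of 619 genes in all fell to 387 without Nkx2-5Cre replicate 1 and to 331 without Nkx2-5Cre replicate 2, whose libraries share the fit.

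Single genes showed the size of these differences. Ttn was 5.45 ± 0.18 (SE, n = 2 libraries) higher on the log2(mean CPM + 1) scale in the Isl1Cre top tertile (limma adjusted p = 9.29e-15), and Actc1 4.87 ± 0.18 higher (5.54e-14). Myl7 was 3.82 ± 0.11 higher (limma adjusted p = 5.38e-16). Among the factors, Nkx2-5 was 2.30 ± 0.22 higher (limma adjusted p = 2.53e-07), Tbx20 3.18 ± 0.25 higher (1.21e-08) and Tbx5 3.03 ± 0.46 higher (0.000161). Ifitm1 was lower by -1.91 ± 0.20 (limma adjusted p = 1.24e-06), Hoxb1 by -4.51 ± 0.64 (6.79e-05) and Ptma by -0.57 ± 0.06 (1.35e-06). Sfrp5 was 1.49 ± 0.22 higher in the Isl1Cre top tertile (limma adjusted p = 0.000129) and Wnt2 2.26 ± 0.25 higher (3.01e-06), although neither followed Tnnt2 in the Nkx2-5Cre cells. Isl1 was lower by -1.49 ± 0.40 (limma adjusted p = 0.0299), a call that was lost without Isl1Cre replicate 1 (0.161), Nkx2-5Cre replicate 1 (0.114) or Nkx2-5Cre replicate 2 (0.145).

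The Tnnt2 tertiles lay farther apart in Isl1Cre than in Nkx2-5Cre cells. Their mean Tnnt2 level was 110 CPM at the bottom and 2464 CPM at the top in Isl1Cre replicate 1 and 132 and 3378 CPM in replicate 2, a 22.4-fold and 25.6-fold difference, against 4.83-fold and 5.54-fold in the Nkx2-5Cre cells. In the interaction test of limma, 35 of 10252 genes (0.341%) had a lower and 2 (0.0195%) a higher top-to-bottom difference in Nkx2-5Cre than in Isl1Cre cells. Of the 34 contractile genes tested, 13 were among the 35, with a median of -1.23 over the list against -0.01 over all genes. This test also draws on the Nkx2-5Cre tertiles that the ranking defined. Genes that follow Tnnt2 would show a smaller difference there from the narrower Tnnt2 span alone. For such genes the p-values below therefore cannot tell a further difference from that span. Ttn differed by -2.20 ± 0.26 (limma adjusted p = 0.000112), Actc1 by -1.99 ± 0.26 (0.000384) and Myl7 by -1.64 ± 0.15 (6.04e-06), all on the log2(mean CPM + 1) scale. Sfrp5 differed by -2.10 ± 0.32 (limma adjusted p = 0.00135). This adjusted p became 0.129 without Nkx2-5Cre replicate 1, 0.10 when cells were ranked by Myl7 and 0.205 without the filter on low values. Sfrp5 did not follow Tnnt2 in the Nkx2-5Cre cells, but it is a marker gene chosen with results of these data known. Its p-value is therefore not independent support for a difference between the lineages. The total of 37 genes fell to 14 without Nkx2-5Cre replicate 1, to 12 without Nkx2-5Cre replicate 2, and to 0 when genes of low level were not filtered out beforehand. With the filter, 706 genes had an unadjusted p under 0.05, and edgeR on the recovered counts called 67. The comparison shares its Isl1Cre libraries with the test in the Isl1Cre tertiles.

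Averaged over cells, the Nkx2-5Cre hearts at E7.75 had more muscle gene RNA than the Isl1Cre hearts of that stage. Of 35 contractile genes tested, 24 were higher and 0 lower by limma, with a median difference of 1.12 on the log2(mean CPM + 1) scale. Over all 10570 genes, 389 (3.68%) were higher, 315 (2.98%) lower, and the median was 0.05. In a mean over cells, more cells in a muscle state and more RNA per such cell cannot be told apart. Actn2 averaged 73.8 and 51.0 CPM in the Nkx2-5Cre libraries and 10.1 and 8.92 CPM in the Isl1Cre libraries, 2.52 ± 0.20 higher (SE, n = 2 libraries a group; limma adjusted p = 2.51e-07). Myh7 averaged 157 and 122 CPM against 33.7 and 27.7 CPM, 2.09 ± 0.18 higher (limma adjusted p = 3.72e-07). Actc1 averaged 3368 and 2321 CPM against 944 and 984 CPM, 1.48 ± 0.15 higher (limma adjusted p = 4.43e-06). The groups did not overlap for any of these 3 genes, but the share of all genes without overlap was not counted. Tnnt2 averaged 2013 and 2003 CPM against 1199 and 1542 CPM, only 0.51 ± 0.11 higher (limma adjusted p = 0.00887), and this call was lost without Isl1Cre replicate 1 (0.174) or Nkx2-5Cre replicate 2 (0.0577). Ttn did not pass (0.37 ± 0.21, adjusted p = 0.350).

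The count of 704 genes in that comparison fell to 289 without Isl1Cre replicate 1, to 327 without Nkx2-5Cre replicate 1, to 395 without Isl1Cre replicate 2 and to 451 without Nkx2-5Cre replicate 2. Nkx2-5 did not pass the test, at 272 and 238 CPM against 204 and 235 CPM (0.17 ± 0.15, limma adjusted p = 0.596), and neither did Tbx20, at 161 and 97.2 CPM against 140 and 127 CPM, or Isl1, at 45.4 and 50.8 CPM against 25.6 and 34.8 CPM. Of 33 heart transcription factor genes tested, 6 were higher and 1 lower. Hand1 was among the higher ones, at 58.7 and 66.9 CPM against 17.5 and 17.2 CPM (1.74 ± 0.35, limma adjusted p = 0.00413).

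The 5 marker genes were chosen as marks of this cell group with results of these data known, so their levels in the groups are given as a description without a test. Nodal averaged 44.5 and 56.3 CPM in the Nkx2-5Cre cells and was at 0 in all 69 and 71 Isl1Cre cells. Summed over cells it had 1256 and 1077 counts against 0 and 0. Against the limit that 0 counts allows (3 counts per library, a CPM of 0.290 over the summed counts), the lower Nkx2-5Cre library, at a CPM of 38.9 over its summed counts, was 134-fold higher. The 95% limits for counting error reached down to 36.7 CPM in that library and up to 0.357 CPM in Isl1Cre replicate 1. Lefty2 averaged 75.8 and 58.0 CPM against 0 and 0.802 CPM, the latter from 6 counts in 1 cell. The groups did not overlap for these genes. Ifitm1 averaged 331 and 422 CPM against 385 and 315 CPM, and Sfrp5 277 and 176 CPM against 172 and 158 CPM. Fgf8 averaged 127 and 160 CPM against 82.6 and 101 CPM, and the groups overlapped for Ifitm1 only. The share of all genes without overlap between these groups was not counted.

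Of the 184 genes at the negative end of the ranking, 32 were lower and 1 higher in the Nkx2-5Cre group as a whole. Their median difference was -0.25, and of all 10570 genes 2.98% were lower and 3.68% higher. Ptma averaged 3397 and 3602 CPM against 5660 and 5939 CPM, a difference of -0.78 ± 0.11 (SE; limma adjusted p = 0.000119). Sall4, a zinc finger factor of pluripotent cells and early mesoderm, ran less clearly against Tnnt2 (-0.24 and -0.17 among cells with at least 50000 counts). It averaged 118 and 144 CPM against 365 and 353 CPM, a difference of -1.50 ± 0.20 (limma adjusted p = 0.000116). Of 30 S phase genes, 0 were higher and 3 lower, and of 40 G2/M genes 0 were higher and 5 lower. The medians were -0.24 and -0.19 against 0.05 over all genes. Only 1 of 39 eligible G2/M genes had passed -0.3 in the ranking.

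From E7.75 to E8.25 the Nkx2-5Cre cells had more muscle gene RNA. Of 35 contractile genes, 33 were higher at E8.25 and 1, the nonmuscle tropomyosin gene Tpm4, was lower (limma adjusted p = 0.0152, but 0.0980 without E7.75 replicate 2 and 0.131 without E8.25 replicate 1), with a median difference of 1.47 on the log2(mean CPM + 1) scale. Over all 10570 genes, 835 (7.90%) were higher, 547 (5.18%) lower, and the median was -0.01. Tnnt2 averaged 4699 and 5798 CPM at E8.25 against 2013 and 2003 CPM, 1.40 ± 0.11 higher (SE, n = 2 libraries a stage; limma adjusted p = 8.36e-08). Myh7 averaged 662 and 927 CPM against 157 and 122 CPM, 2.52 ± 0.18 higher (limma adjusted p = 1.23e-08). Actc1 averaged 9139 and 6346 CPM against 3368 and 2321 CPM, 1.47 ± 0.15 higher (limma adjusted p = 2.19e-06). The E8.25 values of these genes lay above both E7.75 libraries and, as means, above the means of the top Tnnt2 tertiles for Tnnt2 and Myh7. How many of all genes lay above both E7.75 libraries was not counted. Marker lists of other cell types differed in the same comparison: 5 of 11 endoderm genes tested were lower (median -1.89), both tested paraxial mesoderm genes were lower (median -3.16) and 5 of 11 cranial and pharyngeal mesoderm genes were lower (median -1.28), with 0 higher in each list. Their part in the result was not tested. This comparison shares its E7.75 libraries with the one between lineages.

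For the 5 marker genes, both E8.25 libraries lay under both E7.75 libraries, again as a description. The share of all genes for which this held was not counted. Ifitm1 averaged 19.2 and 56.8 CPM against 331 and 422 CPM. Sfrp5 averaged 21.9 and 24.4 CPM against 277 and 176 CPM. Nodal averaged 1.92 and 1.19 CPM against 44.5 and 56.3 CPM, and was seen in 23 of 87 and 4 of 82 cells. Lefty2 averaged 6.42 and 1.2 CPM against 75.8 and 58.0 CPM. Fgf8 averaged 49.7 and 47.8 CPM against 127 and 160 CPM. Among the factors, Isl1 fell to 9.12 and 15.9 CPM (-1.88 ± 0.39, limma adjusted p = 0.00270), while Nkx2-5 did not pass the test (0.22 ± 0.15, adjusted p = 0.397).

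Other gene lists differed between the stages to unlike degrees. Of 40 ribosomal protein genes, 0 were higher and 21 lower at E8.25, and Ptma averaged 1880 and 2384 CPM (-0.70 ± 0.11 against E7.75, limma adjusted p = 0.000154). Of 45 oxidative phosphorylation genes, 30 were higher and 0 lower, and of 24 glycolysis genes 12 were higher. Of 30 S phase genes, 0 were higher and 4 lower, with a median of -0.32 against -0.01 over all genes. The natriuretic peptide gene Nppa averaged 585 and 374 CPM at E8.25 against 9.92 and 18.9 CPM (5.01 ± 0.29, limma adjusted p = 6.06e-10). The count of 1382 genes fell to 766 without Nkx2-5Cre E7.75 replicate 2, 803 without E8.25 replicate 2, 861 without E7.75 replicate 1 and 986 without E8.25 replicate 1.

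**Figure D5:**
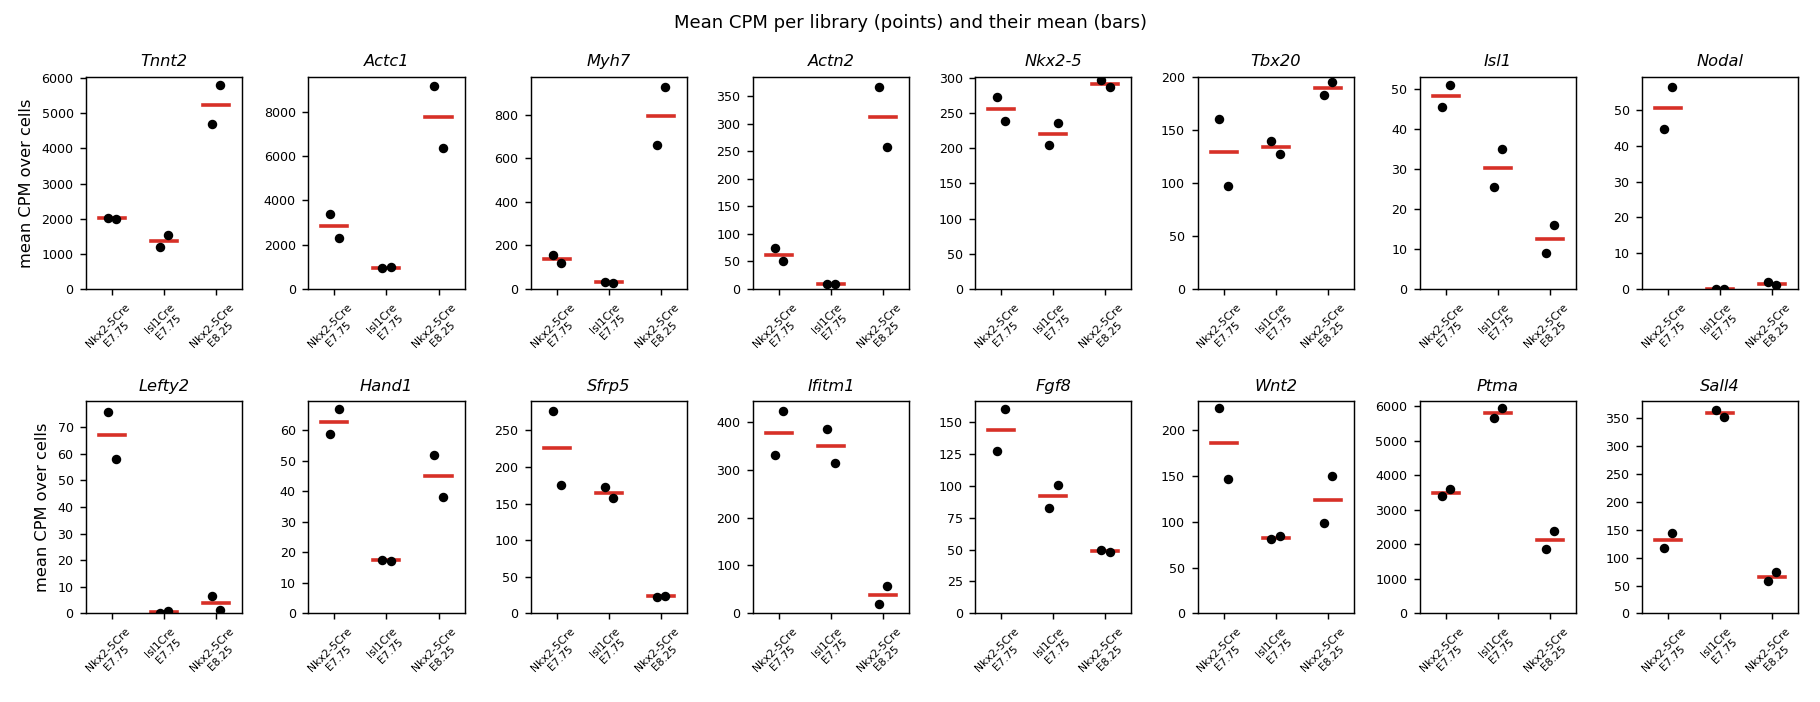
Mean CPM over cells of the rule in each library (points) and their mean (bars) for 16 genes in Nkx2-5Cre E7.75, Isl1Cre E7.75 and Nkx2-5Cre E8.25. Nodal and Lefty2 are near 0 outside Nkx2-5Cre E7.75, and Tnnt2 rose from 2013 and 2003 CPM to 4699 and 5798 CPM at E8.25.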

How the data were processed

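Single-cell RNA-seq of 15 mouse heart libraries was analysed. The labels' protocols describe a modified Smart-seq2 method with cell barcodes, molecular identifiers and 3′ capture. TopHat2 2.0.12, CASAVA 1.8, HTSeq and the mm10 build are listed in the submitters' processing notes, without settings. The authors deposited CPM values of 23154 genes for each cell, none of them mitochondrial. In every library 100% of low values (up to 20 steps, tolerance 0.1) were whole multiples of 1 step, so whole counts were recovered for depth and count-based alternatives, except in 2 cells of Nkx2-5Cre E8.25 replicate 2. It is not stated if a count is a read or a molecular identifier, and intervals and floors cover counting error only. Cells were taken singly and no doublet caller was run.

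Mean CPM over the cells of the rule was tested with limma 3.58.1 (R 4.3.3) on log2(mean CPM + 1) with TMM scaling, trended empirical Bayes and Benjamini-Hochberg adjustment at 0.05, over genes averaging at least 5 CPM in at least 2 libraries. Comparisons of groups used 1 mean per group over all 15 libraries, and the Tnnt2 tertiles used 3 tertiles in each of 4 libraries with library as a block. Rank correlations were computed in Python 3.11.15 with scipy 1.17.1. The fits were tested on simulated data. On the recovered counts, edgeR 4.0.16 called 714 genes between lineages, 1537 between stages, 767 between Isl1Cre tertiles and 67 for the interaction, where limma called 704, 1382, 619 and 37. DESeq2 1.42.0, thinned cells, other pseudocounts, filters and scalings were further alternatives. Promoters and gene positions came from RefSeq tables (GRCm38.p6), which matched 708 of 710 genes looked up.

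The members, the ranking gene and all gene lists were chosen with earlier results of these data known. Genes were named if they were Tnnt2, a marker gene or a heart transcription factor, among the 15 strongest correlations in each direction, among up to 5 strongest of each other list, among the 6 largest limma changes in each direction, or nearest neighbours of a marker gene. Some genes that this rule covers are not reported here. The rule does not cover Myh7, Myh10, Tnni3, Tpm4 and Rbp4, which were chosen after their values were seen.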

Additional observations from a re-analysis of the deposited data

Results flagged for a closer look

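The difference between the top and the bottom Tnnt2 tertile was not the same in Nkx2-5Cre and Isl1Cre cells at E7.75 for 37 genes in the interaction test of limma. Differences of single genes that the naming rule covers are given on the log2(mean CPM + 1) scale and as Nkx2-5Cre minus Isl1Cre. Popdc2, which encodes a membrane protein of striated muscle, differed by -2.32, Ttn by -2.20, Ccdc141 by -2.20, Unc45b, a myosin chaperone gene, by -2.13, Sfrp5 by -2.10 and H2-T23 by -2.07. In the other direction, Emb differed by 1.65. Tnnt2 itself, the ranking gene, differed 4.83-fold and 5.54-fold between the tertiles of the Nkx2-5Cre libraries and 22.4-fold and 25.6-fold between those of the Isl1Cre libraries. For genes that follow Tnnt2, the test cannot tell a further difference from this unlike span of the ranking gene. The test also draws on the Nkx2-5Cre tertiles that the ranking defined, and Sfrp5 is a marker gene chosen with results of these data known. These calls are therefore not independent support. Cells left out by the rule had median Tnnt2 levels of 390 and 439 CPM in the Nkx2-5Cre libraries and 122 and 76.3 CPM in the Isl1Cre libraries, and the part of these levels in the result was not tested.

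Of these genes, Ttn lost its call only when genes of low level were not filtered out (adjusted p = 0.200 by limma). Popdc2, Unc45b, Ccdc141 and Emb lost theirs without either Nkx2-5Cre library: Popdc2 had an adjusted p by limma of 0.342 without replicate 1 and 0.312 without replicate 2, Unc45b 0.298 and 0.190, Ccdc141 0.516 and 0.0951, and Emb 0.342 and 0.0951. H2-T23 (0.111) lost its call without Nkx2-5Cre replicate 2, and Sfrp5 (0.129) lost its call without Nkx2-5Cre replicate 1. None of these genes was called without the filter on low values. In edgeR on the recovered counts, Popdc2 (adjusted p = 0.0530), Emb (0.0681) and H2-T23 (0.150) were not called, and H2-T23 was not called in DESeq2 either (0.549). Unc45b lost its call with a pseudocount of 10 (0.0692 by limma), and Ccdc141 (0.0731) and Sfrp5 (0.10) lost theirs when cells were ranked by Myl7.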

How the results depend on the processing

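No called difference of a named gene in the limma comparisons changed its direction under the alternatives run. Correlations near 0 did, as those of Sfrp5 and Hand2 with Tnnt2 in replicate 2, both -0.06, which were 0.04 among cells with at least 50000 counts. The count of genes with a positive rank correlation, 141, was 81 with Pearson correlation of log values, and that of negative ones, 184, was 50 with Pearson correlation and 83 in cells thinned to 20000 counts. With a mean of at least 5 CPM as the filter, 338 genes were higher and 241 lower in the top tertile, against 175 and 94, and a pseudocount of 10 left 45 lower. Leaving out either Nkx2-5Cre library, which by construction asks for the limit in 1 library only, gave 170 to 326 positive, 367 to 435 negative, 328 to 361 higher and 326 to 332 lower genes. Without a filter on low values, limma called 426 genes between lineages (704 with it), 290 between Isl1Cre tertiles (619) and 0 for the interaction (37). More genes then entered both the adjustment and the estimate of spread, and the part of either was not tested. DESeq2 called 1210 genes between Isl1Cre tertiles and 156 for the interaction, and edgeR 67 for the interaction. Leaving out each library in turn gave 289 to 451 genes between lineages, 766 to 986 between stages, 331 to 703 between Isl1Cre tertiles and 12 to 49 for the interaction; a lone library was then assumed to vary like the other groups. Fitted on the 4 libraries alone, the lineage comparison gave 359 higher and 519 lower genes, and with a pseudocount of 10 it gave 312 and 320, against 389 and 315. The cause of these changes was otherwise not tested. Same-numbered libraries share only a number: their deviations correlated at -0.00036 with Isl1Cre E7.75 and -0.019 with Nkx2-5Cre E8.25, and a replicate block gave 780 and 1430 genes. Of 209 named genes, 30 lost a call between lineages under at least 1 setting other than leaving out a library. Depth limits the low genes: 5 and 10 cells had under 20000 counts, and Nodal, Lefty2, Hoxb1 and Bmp4 are not detectable in many shallow cells.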
